A study of Mus musculus with 6 samples.

Results

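The DNA replication machinery and its nucleotide supply were followed in fibroblasts grown from mouse embryos (MEFs), cells of connective tissue origin that were labelled as wild type. The genes were chosen by symbol from a list of 37 replication and nucleotide genes, and 35 of the 37 had a probe set annotated to that gene alone, among 12393 genes measured. The remaining members, Chaf1a and Gins2, were not analysed here. One group was starved for 6 h (3 arrays) and the other was grown in normal medium as control (3 arrays). The labels name no other genotype, leave out what the starvation medium lacked, and do not say whether the biological replicates came from separate cultures. The p-values therefore measure the spread between these arrays, which may be technical.

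Before a cell copies its DNA, the origin recognition complex, Cdc6 and Cdt1 load a ring of Mcm proteins onto each origin, a step called licensing, and geminin blocks Cdt1 once copying has begun. Cdc45, the GINS complex and Mcm10 turn the ring into an active helicase. Primase and the alpha, delta and epsilon DNA polymerases then synthesise DNA behind it, held on the template by the sliding clamp Pcna, which a replication factor C loader places there. Ribonucleotide reductase, thymidine kinase, thymidylate synthase and dUTPase supply or police the deoxynucleotide pool. Many of these genes are transcribed by E2F factors around the start of S phase, which is why their messages serve as markers of proliferating fibroblasts.

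Starvation split the replication genes. In starved cells messages for 5 of 6 polymerase and primase subunits, the clamp loader subunits Rfc3, Rfc4 and Rfc5 and the large ribonucleotide reductase subunit were higher. Those for Cdc6, 3 origin recognition subunits, Pcna, Fen1, Rrm2, Tk1 and Dut were lower. Of the 35 measured genes 16 rose and 13 fell, while 6 did not pass (limma with Benjamini-Hochberg adjustment over all genes, adjusted p below 0.05). Over all genes 22.1% were called higher and 22.0% lower, so 45.7% of the replication genes rose and 37.1% fell against these shares. The median difference of the replication genes was 0.26 on the log2 scale, and that of all genes was −0.05. With the dimmest 40% of genes left out, 17 of 34 replication genes were higher and 13 lower. Of the 7436 genes kept, 2681 were higher and 2205 lower, larger shares than over all genes. Every difference below is starved minus control on the log2 scale of the array signal, with its SE, and levels are log2 array signals. Apart from Cdc6 and Fen1 the falls were small, at most 0.36 on the log2 scale. When control replicate 1 was left out, 15 members were called higher (19.7% of all genes) and only 6 lower (18.2%). In RNA from whole cultures, fewer cells that express a gene and less of its message per cell cannot be told apart.

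**Figure D1:**
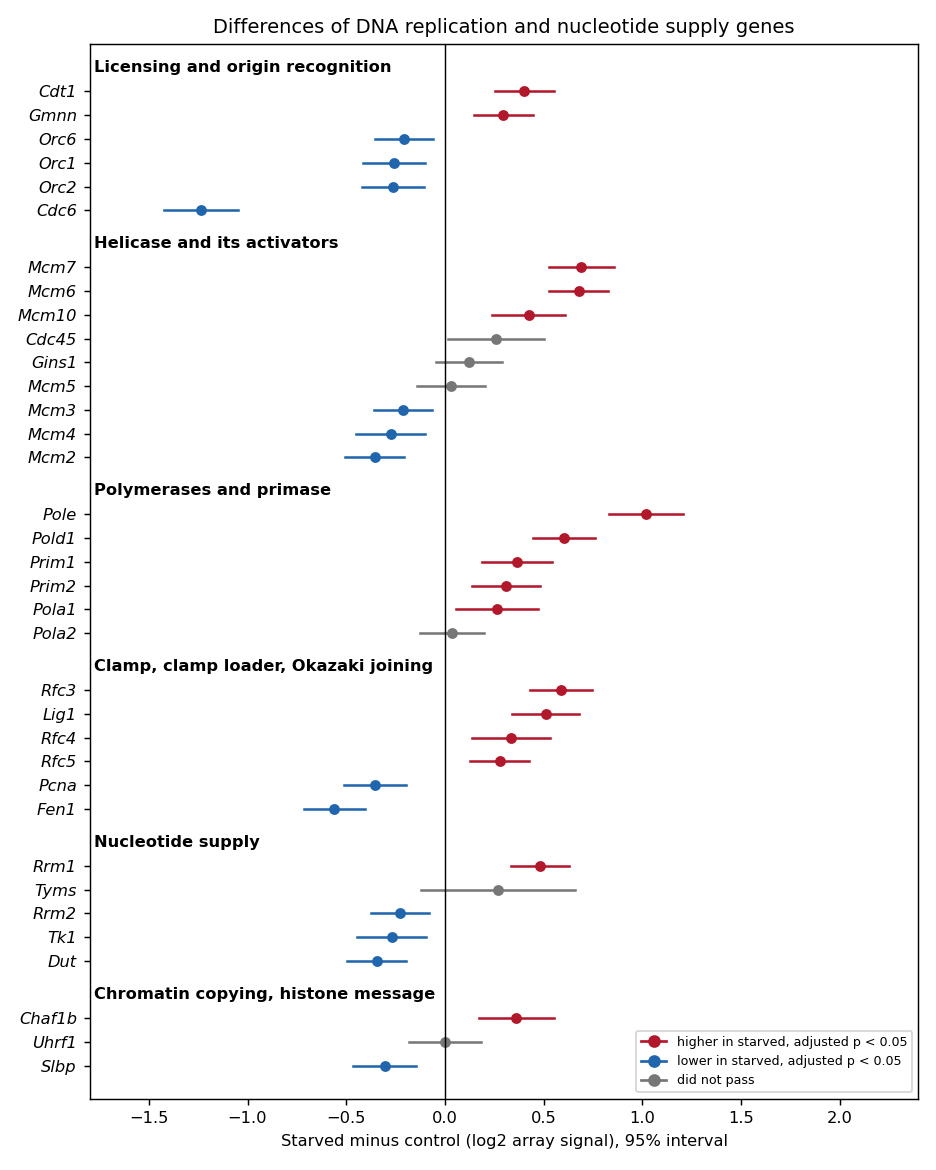
Difference between starved and control cells on the log2 scale (x axis) for each of the 35 measured replication genes (rows, grouped by role). Points are the fitted differences, bars their 95% intervals, and colours show whether the gene was called higher (16), called lower (13) or did not pass (6). Pole lies farthest to the right at 1.02 and Cdc6 farthest to the left at −1.23.

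Because the direction of a difference depends on how arrays are scaled, 3 other scalings were compared with the deposited one. Signals of the poly-A spike-ins, bacterial transcripts added during labelling, lay between 7.76 and 7.96 on starved arrays and between 7.41 and 7.43 on control arrays. Centring each array on them moved the median of all genes to −0.47. Under it 3 replication genes remained higher, Pole (0.59), Mcm7 (0.27) and Mcm6 (0.25), against 6.94% of all genes, and 17 were lower, against 75.2%. All 13 genes that fell in the deposited scaling also fell under this one. That they stayed below 0 was fixed in advance, since this centring lowers every difference by the same amount. Centring on the hybridization spike-ins, which also lowers every difference, left 9 of the 16 rises (13.5% of all genes higher) and the same 13 falls (49.2% lower). After poly-A centring 9 of the 16 rises lay below 0, so these rises are relative to the bulk of measured genes as the deposited normalization sets it.

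**Figure D2:**
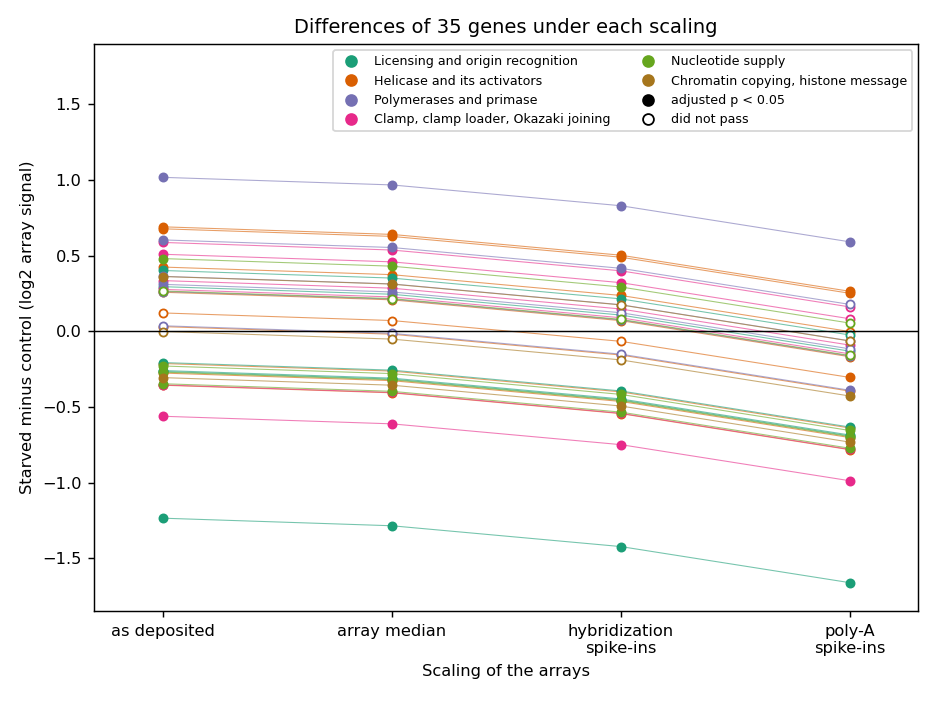
Starved minus control difference on the log2 scale (y axis) of the 35 genes under 4 scalings of the arrays (x axis), each gene a line coloured by role. Filled points passed at an adjusted p below 0.05 and open points did not. The lines run in parallel because a scaling moves all genes together, and 3 genes are still called higher under poly-A centring at the right.

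Since the replication genes are classical E2F targets, the promoters of 30 of the 35 measured genes that matched a RefSeq promoter table (GRCm38.p6, 250 bases before to 50 after the start site) were searched on both strands for TTTCCCGC, TTTGGCGC and TTTCGCGC, forms of the E2F site that can overlap each other. Of the 30, 12 held a match (40%), compared with 3.55% of the 9887 genes on the arrays that have a promoter in the table and 1.84% of all 32851 promoters. A match was present in 7 of 13 genes that rose and have a promoter in the table, in 3 of 12 that fell and in 2 of 5 that did not pass. CCAAT, the NF-Y element, was present in 18 of the 30 (60%) and in 42.3% of the array genes. A match describes the letters in the window and no binding was measured. The promoters below belong to the 3 genes with the largest rise and the 3 with the largest fall among called genes that held a match, and show the shared letters beside opposite directions. They are written 5′ to 3′ on the strand of the gene, with E2F-type letters in capitals.
Mcm7: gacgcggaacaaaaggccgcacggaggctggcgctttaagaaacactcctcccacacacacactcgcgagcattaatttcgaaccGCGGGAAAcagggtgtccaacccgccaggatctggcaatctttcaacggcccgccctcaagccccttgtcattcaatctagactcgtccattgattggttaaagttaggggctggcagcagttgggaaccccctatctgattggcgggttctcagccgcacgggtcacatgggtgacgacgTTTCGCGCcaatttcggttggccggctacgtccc
Mcm6: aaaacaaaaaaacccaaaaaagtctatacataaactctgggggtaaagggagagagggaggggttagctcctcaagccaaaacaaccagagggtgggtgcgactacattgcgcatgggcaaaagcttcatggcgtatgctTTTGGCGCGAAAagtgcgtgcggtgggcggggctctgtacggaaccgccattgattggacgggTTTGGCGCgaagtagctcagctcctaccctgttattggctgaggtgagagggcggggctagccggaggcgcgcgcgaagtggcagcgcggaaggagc
Pold1: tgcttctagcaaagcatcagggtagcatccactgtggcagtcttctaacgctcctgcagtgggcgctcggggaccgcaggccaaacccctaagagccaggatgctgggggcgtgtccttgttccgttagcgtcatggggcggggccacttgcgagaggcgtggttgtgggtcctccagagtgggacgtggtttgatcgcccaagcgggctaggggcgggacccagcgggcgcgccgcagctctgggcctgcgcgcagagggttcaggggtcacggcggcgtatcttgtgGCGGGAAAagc
Cdc6: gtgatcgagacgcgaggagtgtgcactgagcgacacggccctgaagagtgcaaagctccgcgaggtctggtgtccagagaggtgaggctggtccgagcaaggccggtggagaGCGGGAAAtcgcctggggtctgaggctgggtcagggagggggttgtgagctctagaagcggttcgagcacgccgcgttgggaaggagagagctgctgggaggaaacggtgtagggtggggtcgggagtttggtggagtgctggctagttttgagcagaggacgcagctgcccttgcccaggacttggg
Orc1: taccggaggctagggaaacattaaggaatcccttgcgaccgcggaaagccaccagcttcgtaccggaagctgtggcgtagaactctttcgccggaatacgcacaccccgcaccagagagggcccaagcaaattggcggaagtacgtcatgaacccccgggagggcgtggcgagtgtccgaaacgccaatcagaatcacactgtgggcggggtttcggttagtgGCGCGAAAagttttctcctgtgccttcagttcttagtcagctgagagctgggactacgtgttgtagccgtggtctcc
Mcm3: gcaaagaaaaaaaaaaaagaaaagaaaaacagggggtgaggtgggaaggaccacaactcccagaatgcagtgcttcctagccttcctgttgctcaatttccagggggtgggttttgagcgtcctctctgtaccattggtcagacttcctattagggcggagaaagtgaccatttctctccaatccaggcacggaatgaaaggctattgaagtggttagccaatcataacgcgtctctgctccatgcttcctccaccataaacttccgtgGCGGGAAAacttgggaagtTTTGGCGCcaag

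The promoter windows lie at chr5:138171834-138172133 (minus strand) for Mcm7, chr1:128359656-128359955 (minus strand) for Mcm6 and chr7:44548766-44549065 (minus strand) for Pold1. Those of the genes that fell lie at chr11:98907901-98908200 (plus strand) for Cdc6, chr4:108579204-108579503 (plus strand) for Orc1 and chr1:20820263-20820562 (minus strand) for Mcm3. The Mcm6 window holds 3 matches, of which the first and second overlap, and the windows of Mcm7 and Mcm3 hold 2 each. Single matches stand in the windows of Pold1, Cdc6 and Orc1.

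Licensing genes showed the largest fall of all members. Cdc6, the ATPase that recruits the Mcm ring to the origin, had levels of 6.73, 6.51 and 6.73 on starved arrays and 7.98, 7.85 and 7.84 on control arrays. The groups were 1.12 apart at their nearest arrays, with every starved array lower. Cdc6 thus fell by 1.23 (SE 0.08, 95% interval −1.42 to −1.05, adjusted p = 2.48e-06), a 2.35-fold change, and 0.96% of all genes had a lower difference. Its single probe set is one that can bind several transcripts of the gene.

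Among the members, 3 subunits of the origin recognition complex, which marks origins on DNA, also fell, by smaller amounts. Orc1 had 6.56, 6.45 and 6.50 on starved arrays and 6.83, 6.72 and 6.75 on control arrays, a difference of −0.26 (SE 0.07, adjusted p = 0.0133). Orc2 had 7.50, 7.55 and 7.56 in starved cells and 7.88, 7.78 and 7.75 in control cells (−0.26, SE 0.07, adjusted p = 0.0116). Orc6 had 9.09, 9.12 and 9.07 in starved cells and 9.29, 9.27 and 9.34 in control cells (−0.21, SE 0.07, adjusted p = 0.0282). None of the 3 overlapped between groups. Orc6 lost its call without control replicate 1, 2 or 3 or starved replicate 3, and Orc1 and Orc2 without control replicate 1.

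Cdt1, the partner of Cdc6 in loading, and Gmnn, the geminin gene that restrains Cdt1, both rose. Cdt1 had 11.33, 11.44 and 11.39 on starved arrays and 10.98, 11.01 and 10.96 on control arrays (0.40, SE 0.07, adjusted p = 0.000808). Gmnn had 10.21, 10.11 and 10.14 on starved arrays and 9.85, 9.84 and 9.88 on control arrays (0.30, SE 0.07, adjusted p = 0.00479). The groups did not overlap for either gene. Under poly-A centring both lay below 0, at −0.02 for Cdt1 and −0.13 for Gmnn, and neither passed. Of the 6 licensing genes 2 rose and 4 fell (all genes 22.1% and 22.0%), with a median of −0.23.

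**Figure D3:**
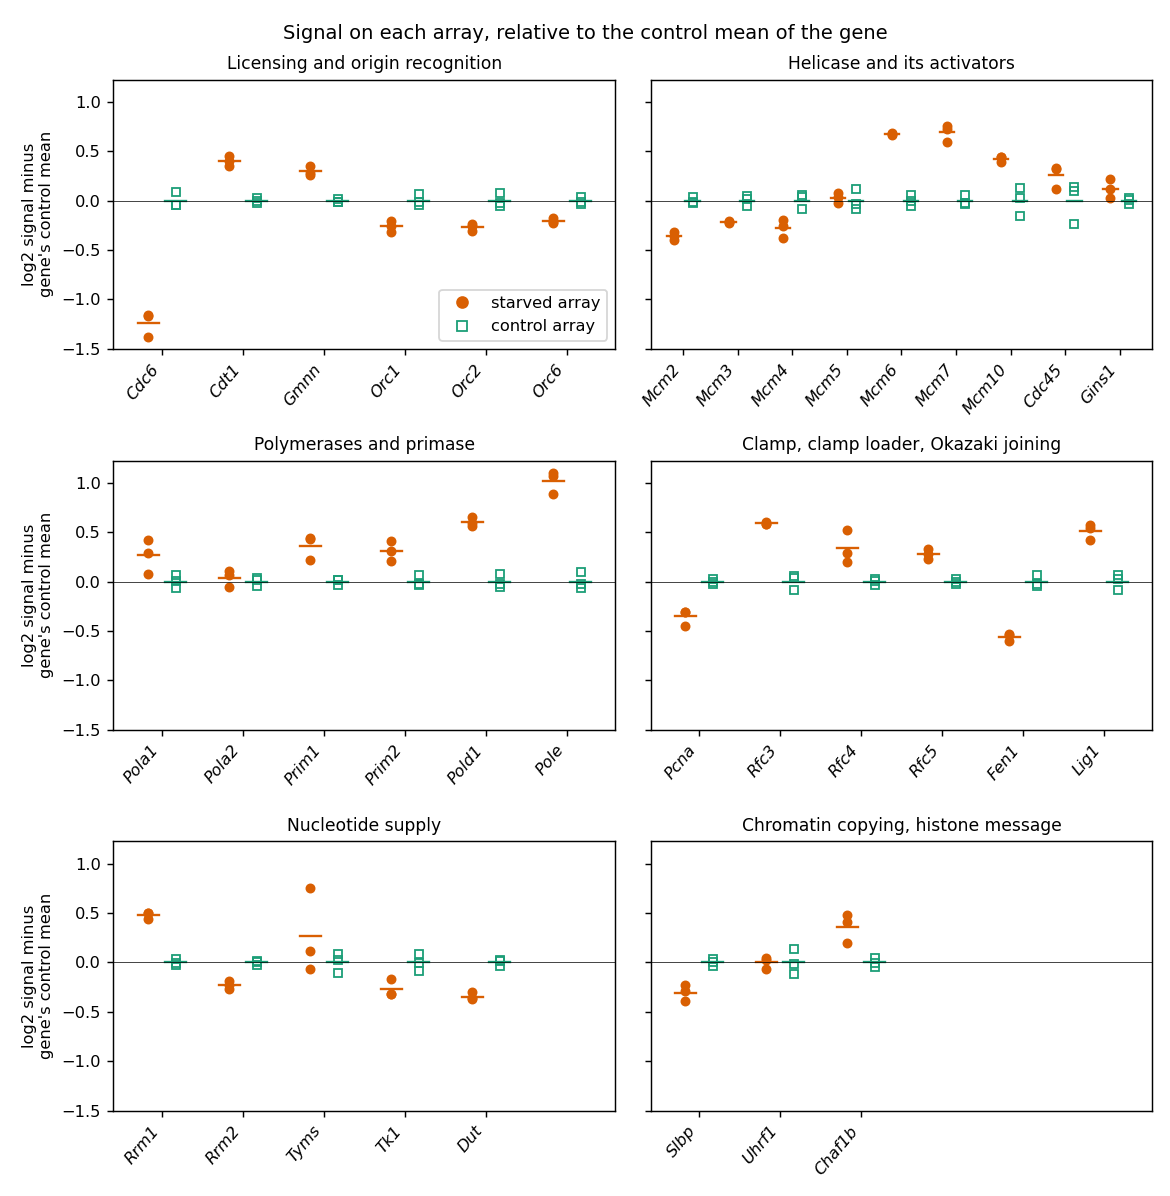
Log2 signal of every array minus the control mean of the same gene (y axis) for the measured genes (x axis), 1 panel per role, with starved arrays as filled circles and control arrays as open squares. Short lines are group means. Cdc6 stands alone near −1.23, the polymerase panel lies above 0 on nearly all starved arrays, and the helicase panel holds genes on both sides of 0.

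The helicase ring itself was split, although its Mcm2 to Mcm7 subunits assemble into 1 complex. Mcm6 had 11.09, 11.11 and 11.10 on starved arrays and 10.48, 10.37 and 10.42 on control arrays, a rise of 0.68 (SE 0.07, adjusted p = 2.63e-05). Mcm7 had 11.99, 11.96 and 11.83 on starved arrays and 11.29, 11.19 and 11.21 on control arrays, a rise of 0.69 (SE 0.07, adjusted p = 4.32e-05). For both genes the lowest starved array lay more than 0.5 above the highest control array. All 4 probe sets of Mcm7 and both of Mcm6 were called higher, with differences between 0.55 and 0.69. Those of Mcm7 and the dimmer of Mcm6 are of types that can bind several transcripts.

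Mcm2, Mcm3 and Mcm4 went the other way. Mcm2 had 9.86, 9.83 and 9.91 in starved cells and 10.20, 10.25 and 10.21 in control cells (−0.36, SE 0.07, adjusted p = 0.00157). Mcm4 had 11.05, 10.93 and 11.10 in starved cells and 11.36, 11.21 and 11.34 in control cells (−0.28, SE 0.08, adjusted p = 0.0155). Mcm3 had 9.55, 9.56 and 9.54 in starved cells and 9.81, 9.71 and 9.78 in control cells (−0.21, SE 0.07, adjusted p = 0.0264). Starved and control arrays did not overlap for these 3 genes. All 5 probe sets of Mcm3 were called lower, between −0.53 and −0.21, as were both of Mcm2, whereas the dimmer probe set of Mcm4 did not pass (−0.17), and Mcm4 lost its call with the mean of both (−0.22, adjusted p = 0.0752). The calls of Mcm3 and Mcm4 were lost without control replicate 1, without control replicate 3 and without starved replicate 2. Mcm5 did not pass (0.03, SE 0.08, 95% interval −0.14 to 0.20, adjusted p = 0.768), and its starved arrays (10.16, 10.12 and 10.06) overlapped its control arrays (10.20, 10.04 and 9.99).

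Among the factors that activate the ring, Mcm10 rose and the others did not pass. Mcm10 had 8.39, 8.39 and 8.33 in starved cells and 8.07, 7.97 and 7.79 in control cells (0.43, SE 0.08, adjusted p = 0.00211), and under poly-A centring lay at −0.00080 without passing. The groups were separate. Its dimmer probe set did not pass and lay at −0.11, and the call was lost with the mean of both. Cdc45 had 7.63, 7.64 and 7.43 in starved cells and 7.45, 7.40 and 7.07 in control cells, a difference of 0.26 with overlapping groups (SE 0.11, adjusted p = 0.0801). Gins1, a GINS subunit, had 8.89, 8.69 and 8.78 in starved cells and 8.68, 8.63 and 8.69 in control cells (0.12, SE 0.07, 95% interval −0.04 to 0.29, adjusted p = 0.212). The 9 measured helicase genes thus divided evenly into 3 called higher, 3 called lower and 3 without a call, around a median of 0.12. Over all genes 22.1% were higher and 22.0% lower.

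As deposited, polymerase and primase genes formed the most uniform group, with 5 of 6 higher, 0 lower and a median of 0.34. Over all genes 22.1% were higher and 22.0% lower. Under poly-A centring 1 of the 6 was higher and 1 lower (all genes 6.94% and 75.2%). With hybridization centring 2 were higher and 0 lower (all genes 13.5% and 49.2%). Pole, the catalytic subunit of the leading-strand polymerase epsilon, had 8.85, 8.88 and 8.66 on starved arrays and 7.87, 7.71 and 7.75 on control arrays. The groups were 0.79 apart at their nearest points. Pole thus rose by 1.02 (SE 0.08, adjusted p = 8.15e-06), or 2.03-fold, and 2.44% of all genes had a higher difference. Pole remained called under all 3 other scalings.

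Pold1, the catalytic subunit of the lagging-strand polymerase delta, had 9.01, 9.07 and 8.98 in starved cells and 8.49, 8.36 and 8.39 in control cells (0.60, SE 0.07, adjusted p = 7.77e-05). Its second probe set, nearly as bright, rose by 0.72. Prim1, the catalytic primase subunit that lays down RNA primers, had 10.17, 9.95 and 10.16 in starved cells and 9.75, 9.69 and 9.74 in control cells (0.36, SE 0.08, adjusted p = 0.00411). Prim2, the large primase subunit, had 8.96, 8.76 and 8.86 in starved cells and 8.52, 8.51 and 8.61 in control cells (0.31, SE 0.08, adjusted p = 0.00795). The dimmer probe set of Prim2 did not pass (0.18). Groups were separate for Pold1, Prim1 and Prim2. Under poly-A centring Pold1 lay at 0.18 without passing, Prim1 at −0.06 and Prim2 at −0.12.

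Polymerase alpha extends the primers, and its catalytic subunit Pola1 was at the edge of the test. Pola1 had 8.73, 8.52 and 8.87 in starved cells and 8.37, 8.45 and 8.51 in control cells (0.26, SE 0.09, adjusted p = 0.0438). The nearest arrays of the groups were 0.01 apart, and the call was lost when any of control replicates 1, 2 and 3 or starved replicates 1 and 3 was left out. Under poly-A centring it lay at −0.16. Its accessory subunit Pola2 did not pass (0.04, SE 0.07, 95% interval −0.13 to 0.20, adjusted p = 0.707), with 9.05, 9.10 and 8.93 in starved cells and 9.03, 8.94 and 9.01 in control cells.

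At the sliding clamp, the clamp gene and the loader genes among the members differed in direction. Pcna, the clamp, had 12.21, 12.07 and 12.21 on starved arrays and 12.54, 12.50 and 12.52 on control arrays, a fall of 0.35 on the log2 scale (difference −0.35, SE 0.07, adjusted p = 0.00253). Rfc3, a loader subunit, had 8.95, 8.98 and 8.95 on starved arrays and 8.43, 8.28 and 8.41 on control arrays (0.59, SE 0.07, adjusted p = 9.3e-05). No array of one group reached the other for Pcna or Rfc3. The further loader subunits among the members had smaller rises. Rfc4 had 9.41, 9.32 and 9.64 on starved arrays and 9.13, 9.09 and 9.15 on control arrays (0.34, SE 0.09, adjusted p = 0.0116). Rfc5 had 9.34, 9.29 and 9.24 on starved arrays and 9.01, 9.04 and 8.98 on control arrays (0.28, SE 0.07, adjusted p = 0.00718). Both had separate groups. Under poly-A centring Rfc4 lay at −0.09 and Rfc5 at −0.15, and Rfc3, Rfc4 and Rfc5 all lost their calls. Both probe sets of Rfc3 and both of Rfc4 were called higher.

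Okazaki fragments, the short pieces of the lagging strand, are trimmed by the flap nuclease Fen1 and sealed by the ligase Lig1, and these 2 genes moved in opposite directions. Fen1 had 10.28, 10.35 and 10.34 on starved arrays and 10.86, 10.95 and 10.84 on control arrays (−0.56, SE 0.07, adjusted p = 0.00011). Lig1 had 10.64, 10.68 and 10.52 on starved arrays and 10.17, 10.13 and 10.02 on control arrays (0.51, SE 0.08, adjusted p = 0.000381). Fen1 was the second largest fall among the members after Cdc6, and its other probe set fell by 0.71. Both probe sets of Fen1 are of types that can bind several transcripts. Under poly-A centring Fen1 was still called lower, and Lig1 lost its call. Of the 6 clamp, loader and joining genes 4 rose and 2 fell (all genes 22.1% and 22.0%), with a median of 0.31.

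Ribonucleotide reductase makes deoxynucleotides from ribonucleotides, and its subunits diverged. Rrm1, the large catalytic subunit, had 11.51, 11.44 and 11.51 on starved arrays and 10.98, 11.04 and 11.00 on control arrays (0.48, SE 0.07, adjusted p = 0.000237). Rrm2, the small subunit that carries the radical and limits the enzyme in S phase, had 11.39, 11.35 and 11.44 on starved arrays and 11.64, 11.60 and 11.63 on control arrays (−0.23, SE 0.07, adjusted p = 0.018). Neither gene overlapped between groups. All 3 probe sets of Rrm2 were called lower, between −0.47 and −0.23, while the dimmer probe set of Rrm1 did not pass (0.27). Rrm2 lost its call without control replicate 1, control replicate 3 or starved replicate 2. Under poly-A centring Rrm1 lost its call.

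Tk1 and Dut, which handle thymidine and uracil nucleotides, both fell, and Tyms did not pass. Tk1, the thymidine salvage kinase, had 9.66, 9.51 and 9.51 in starved cells and 9.92, 9.83 and 9.74 in control cells (−0.27, SE 0.08, adjusted p = 0.0185), with 0.08 between the nearest arrays. Its call was lost without control replicate 1, control replicate 2, starved replicate 2 or starved replicate 3. Dut, the dUTPase that keeps uracil out of DNA, had 10.27, 10.20 and 10.20 in starved cells and 10.53, 10.59 and 10.58 in control cells (−0.35, SE 0.07, adjusted p = 0.00191). Tyms, thymidylate synthase, had 3 probe sets of its own, all dim, and the brightest read 3.80, 4.61 and 3.98 in starved cells and 3.76, 3.94 and 3.88 in control cells (0.27, SE 0.17, adjusted p = 0.245). A brighter probe set that the annotation gives to both Tyms and the pseudogene Tyms-ps averaged 9.15 ± 0.05 in starved cells and 9.54 ± 0.02 in control cells (SD, n = 3 each; difference −0.39), and was left out of the fit because its gene is uncertain. Of the 5 nucleotide supply genes 1 was called higher and 3 lower (all genes 22.1% and 22.0%), and their median was −0.23.

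Genes that copy chromatin with the DNA also differed among themselves. Slbp, which binds the stem-loop of replication-dependent histone messages, had 10.33, 10.23 and 10.39 in starved cells and 10.59, 10.62 and 10.66 in control cells (−0.31, SE 0.07, adjusted p = 0.00619). Chaf1b, a subunit of the histone chaperone CAF-1, had 8.53, 8.46 and 8.25 in starved cells and 8.09, 8.05 and 8.0 in control cells (0.36, SE 0.09, adjusted p = 0.00614). Both had separate groups. Averaging the probe sets of Slbp, the dimmer of which read near 3 in both groups, ended its call, and Chaf1b lay at −0.06 under poly-A centring. Uhrf1, which recruits the maintenance DNA methyltransferase to newly copied DNA, overlapped between groups, with 10.00, 10.08 and 10.10 in starved cells and 10.19, 9.94 and 10.05 in control cells (difference −0.00056, SE 0.08, 95% interval −0.18 to 0.18).

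Across all 35 genes, starved and control arrays were fully separate for 30, with starved arrays above for 17 and below for 13, where 25.7% of all genes lay above and 28.4% below without overlap. Gins1 was the gene with separate groups that did not pass. Of the 21 members with several probe sets 18 were called. When each probe set was tested on its own, 10 of those had every one called in the same direction. Of all single probe sets 20.4% were higher and 20.5% lower, but the share of all called genes with such agreement was not taken. In 0 members was a probe set called against the one used.

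**Figure D4:**
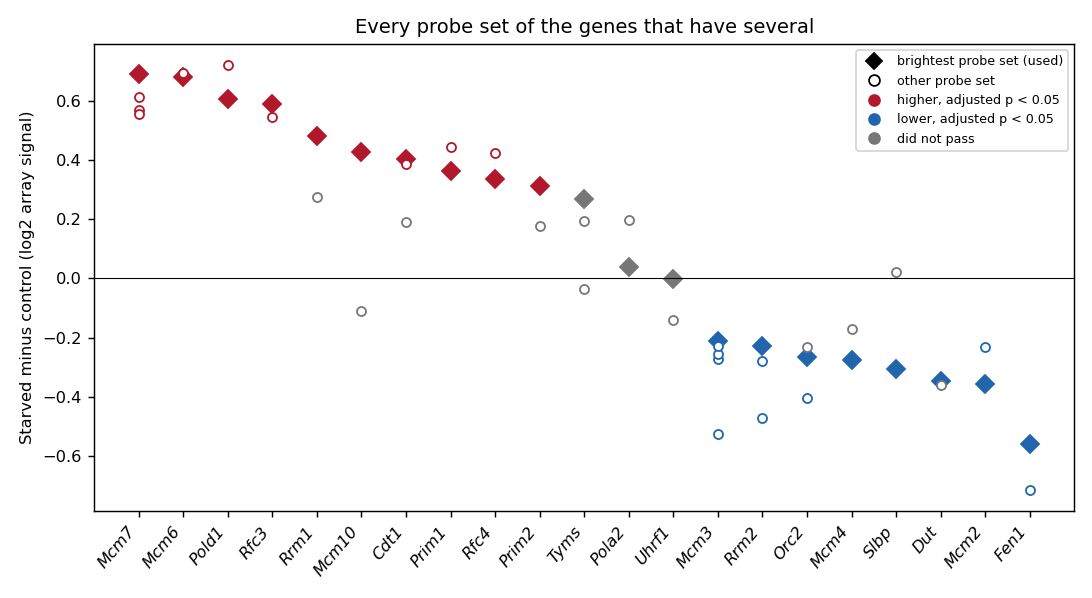
Starved minus control difference on the log2 scale (y axis) of every probe set of the 21 members that have more than 1 (x axis). Diamonds are the brightest probe sets, used for the gene, circles the others, and colours give the call with adjustment over all probe sets. All probe sets of Mcm7 lie between 0.55 and 0.69 and all of Mcm3 between −0.53 and −0.21, and the second probe set of Mcm10 lies at −0.11.

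Differences between members of the same step were also taken within each array, where any scaling of the array cancels. The SE of a pair rests on the spread of its 3 arrays in each group alone. For single genes limma also drew on the variance of all genes, so the 2 kinds of SE are not alike. Of 13 pairs set by role, with earlier results of these data known, 12 were measured. Groups were separate for 7, each at the smallest p that 3 arrays against 3 allow. In an exact two-sided permutation test this is p = 0.1 (Benjamini-Hochberg adjusted p = 0.171). No pair could therefore pass a threshold of 0.05, and the count of separate pairs is no independent support for the differences of single genes. Lig1 minus Fen1 was 1.07 higher in starved than in control arrays (SE 0.07), Mcm10 minus Mcm2 was 0.78 higher (SE 0.09, and 0.45 with the mean of probe sets) and Mcm6 minus Mcm5 was 0.65 higher (SE 0.05). Pole minus Pold1 was 0.41 higher (SE 0.05) and Rfc3 minus Rfc4 0.25 higher (SE 0.11). Rrm2 minus Rrm1 lay at −0.12, −0.09 and −0.07 on starved arrays and at 0.67, 0.56 and 0.63 on control arrays, a shift of −0.71 (SE 0.035). Cdc6 minus Orc2 shifted by −0.97 (SE 0.08). The groups overlapped for Cdt1 minus Gmnn (0.11, SE 0.06, exact p = 0.3), Cdc45 minus Gins1 (0.14, SE 0.16, exact p = 0.6), Prim2 minus Prim1 (−0.05, SE 0.04, exact p = 0.4), Pola2 minus Pola1 (−0.23, SE 0.16, exact p = 0.3) and Tyms minus Tk1 (0.54, SE 0.30, exact p = 0.2), the last resting on a dim Tyms probe set. Leaving out 1 array moved these 5 by more than 1.5 times, with ranges of 0.06 to 0.16 for Cdt1 minus Gmnn, 0.0074 to 0.20 for Cdc45 minus Gins1, −0.077 to −0.019 for Prim2 minus Prim1, −0.35 to −0.099 for Pola2 minus Pola1 and 0.27 to 0.75 for Tyms minus Tk1.

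**Figure D5:**
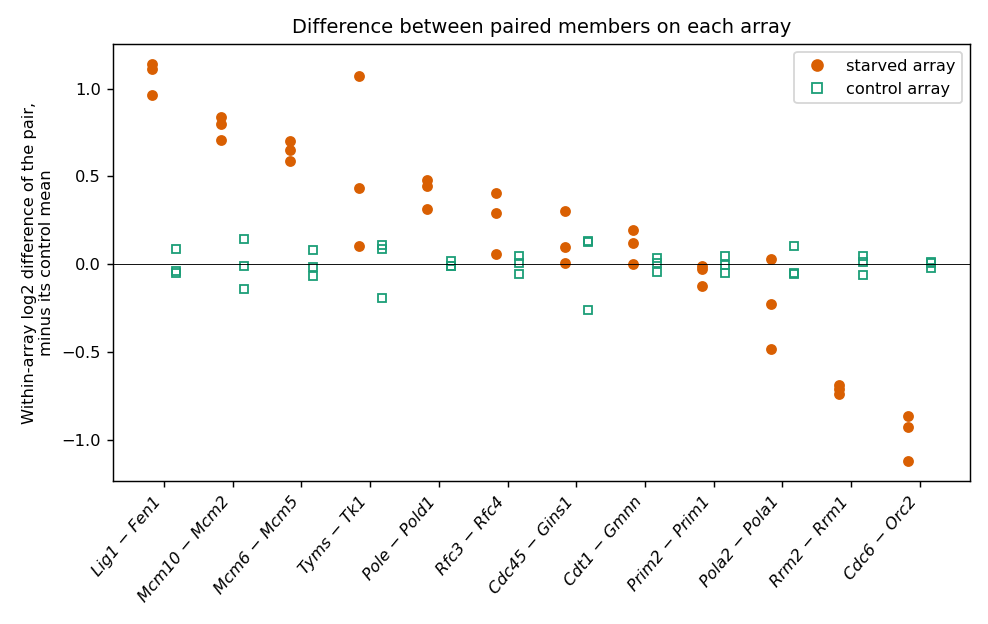
Difference between the log2 signals of 2 members on the same array, minus its control mean (y axis), for 12 pairs (x axis), with starved arrays as filled circles and control arrays as open squares. Starved arrays sit above all control arrays for Lig1 minus Fen1, Mcm10 minus Mcm2, Mcm6 minus Mcm5, Pole minus Pold1 and Rfc3 minus Rfc4, and below them for Rrm2 minus Rrm1 and Cdc6 minus Orc2.

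Further genes of the same pathway, from a list of 74 of which 62 were measured, were called at shares close to those of all genes, with 16 higher (25.8%) and 17 lower (27.4%) and a median of 0.04. Under poly-A centring the same list had 4 higher and 43 lower (median −0.39, all genes 6.94% and 75.2%). With hybridization centring it had 9 higher and 24 lower (all genes 13.5% and 49.2%). Of the 10 polymerase genes outside the members, 5 were higher and 1 lower as deposited (all genes 22.1% and 22.0%), and 1 was higher and 4 were lower under poly-A centring (6.94% and 75.2%). As deposited, those called higher included the delta subunits Pold2 (0.43) and Pold4 (0.32) and the lesion-bypass polymerase Polk (0.88), while Pole4, an epsilon accessory subunit, fell (−0.24). The delta subunit Pold3 (0.13) and the epsilon subunits Pole2 (−0.08) and Pole3 (0.03) did not pass. Of the origin recognition subunits outside the members, Orc4 (0.32) and Orc5 (0.46) rose and Orc3 did not pass (−0.06) as deposited, against the falls of Orc1, Orc2 and Orc6. Under poly-A centring neither Orc4 nor Orc5 was called higher. Of the 11 measured origin and licensing genes outside the members, 0 were higher there and 7 lower (all genes 6.94% and 75.2%). Of the clamp loader subunits outside the members, Rfc1 rose (0.27) and Rfc2 did not pass (0.12), with overlapping groups. In nucleotide supply 7 of 15 fell and 3 rose as deposited (all genes 22.0% and 22.1%).

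The largest rises of that list were in Cmpk2 (1.19, SE 0.11, adjusted p = 1.79e-05), a mitochondrial nucleoside monophosphate kinase, and Samhd1 (1.19, SE 0.07, adjusted p = 1.15e-06), which breaks down deoxynucleoside triphosphates. Both are known as interferon-inducible genes. They were followed by Polk, Top2a, the topoisomerase that untangles sister chromatids (0.88), and Poll, a repair polymerase (0.48). The largest falls were in the nuclease and helicase Dna2, which averaged 4.45 ± 0.11 in starved cells and 6.03 ± 0.06 in control cells (SD, n = 3 each; −1.57, SE 0.08, adjusted p = 4.58e-07), the folate enzyme Mthfd1 (−0.86), the origin firing factor Mtbp (−0.78), the exonuclease Exo1 (−0.76) and the serine hydroxymethyltransferase Shmt1 (−0.56). Dna2 and Fen1, which both process Okazaki flaps, were thus both called lower, while Lig1, which seals the fragments, rose (0.51). Both Dna2 means lay below 6.15, the level under which the dimmest 40% of genes fell.

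Cell cycle genes set beside the members also differed by stage. Of 13 regulators of the G1/S step 8 fell and 2 rose, where 22.0% of all genes fell and 22.1% rose. Ccne2 was lowest (−1.75), followed by Ccne1 (−1.45) and Ccnd1 (−1.24), and Cdkn1a was highest (1.09). Of 15 G2/M genes 14 rose, from Bub1b at 0.37 and Cdk1 at 0.39 to Mki67 at 1.23 and Nusap1 at 1.29. The mean level of the G2/M list lay between 10.38 and 10.40 on starved arrays and between 9.61 and 9.69 on control arrays, and its part in the replication gene differences was not tested. Under poly-A centring 9 G2/M genes were called higher and 1 lower, against 6.94% and 75.2% of all genes. Of 10 E2F and pocket protein genes 4 rose and 3 fell as deposited (all genes 22.1% and 22.0%). Under poly-A centring 2 were higher and 6 lower (all genes 6.94% and 75.2%). In the deposited scaling Rbl2, an E2F-binding repressor, was highest (1.10) and Tfdp1, the DNA-binding partner of E2F, lowest (−0.88). E2f1 did not pass (0.13, SE 0.08, adjusted p = 0.233).

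The fibroblast label was checked against marker genes. The mean level of 12 measured fibroblast markers lay between 11.54 and 11.56 on starved arrays and between 11.23 and 11.33 on control arrays, with 7 higher and 2 lower as deposited, 4 and 3 under hybridization centring and 1 and 6 under poly-A centring. Means of the macrophage and blood list (8 markers, 4.73 to 4.94 starved, 4.86 to 4.91 control), the epithelial list (6 markers, 4.51 to 4.56 starved, 4.47 to 4.62 control) and the endothelial list (5 markers, 3.69 to 3.77 starved, 3.83 to 3.89 control) lay below 6.15, the level under which the dimmest 40% of genes fell. Ptprc and Pecam1 lay below 4 in both groups, whereas the brightest genes of the blood and epithelial lists were Cd14 (7.29 ± 0.08 in starved and 7.75 ± 0.05 in control cells) and Krt19 (6.09 ± 0.14 in starved and 6.40 ± 0.21 in control cells). The 4 neural markers averaged 5.65 to 5.82 in starved and 5.89 to 6.01 in control arrays, with Nes at 7.27 ± 0.23 in starved and 7.65 ± 0.17 in control cells. Of these other lists, Cd68 and Cdh1 were called higher and Cd14, Coro1a, Pecam1, Kdr and Nes lower. The fibroblast list held a dim gene too. Its marker Thy1, called lower as deposited, lay below 6.15 on every array. The 3′ minus 5′ control signals for Gapdh, a measure of RNA integrity, ranged from −0.09 to 0.02 on starved arrays and from −0.02 to 0.03 on control arrays, and those for beta-actin from 0.06 to 0.14 on starved arrays and from 0.01 to 0.03 on control arrays. The part of these values in the results was not tested.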

How the data were processed

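Total RNA from starved and control mouse embryonic fibroblasts was labelled with biotin and hybridised to Affymetrix arrays, 1 sample per array, per the labels' protocols. The authors deposited log2 signals per probe set, made with affy and RMA per the submitters' processing notes (their versions were not given). RMA corrects background, equalises array distributions by quantiles and summarises probes, so a change in total message per cell is removed and folds of dim genes are compressed. Arrays hold no read depth, so their number limits the precision.

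Of 22690 probe sets, 64 controls, 691 with several genes and 1555 with none listed were left out. Symbols came from the platform annotation, and 20351 of 20380 gene identifiers matched the RefSeq table, with 0 symbols updated. A gene took its brightest probe set over all 6 arrays, leaving 12393 genes with no filter on dim ones. All arrays were fitted together by limma 3.58.1 under R 4.3.3, using lmFit and eBayes with group as the sole term. The two-sided p-values were adjusted by Benjamini-Hochberg across the 12393 genes, and 0.05 was the limit. Pairs were compared by exact permutation with scipy 1.17.1. The steps were tested on simulated data. Replicates within a group correlated at 0.997 to 0.998 across genes. Same-numbered arrays of the groups did not deviate together (Pearson r −0.02 to 0.002), so replicate numbers were not taken as pairs. Alternatives were other probe set choices, scalings, variance settings, thresholds, a replicate block and leaving out each array.

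Members, lists, pairs and tests were chosen with earlier results of these data known. Every measured member is named. Of the other pathway genes the text names the 5 largest rises and falls past the threshold with separate groups, and of the context lists Ccnd1, Ccne1, Ccne2, E2f1, Cdk1, Mki67 and the highest and lowest called member. Pold2, Pold3, Pold4, Pole2, Pole3, Pole4, Orc3, Orc4, Orc5, Rfc1, Rfc2 and the markers named singly were chosen after their values were seen. Sequences are from RefSeq.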

Additional observations from a re-analysis of the deposited data

How the results depend on the processing

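The 13 falls and 16 rises were recounted under each alternative. With an adjusted p below 0.01, 14 members were higher and 6 lower (all genes 2149 and 1782). Against a minimum fold of 1.2 in limma's treat, 7 were higher and 2 lower (all genes 1314 and 939), and with a log2 difference of at least 1, 1 was higher (Pole) and 1 lower (Cdc6; all genes 327 and 216). Centring on the hybridization spike-ins gave 9 higher (all genes 1673 higher, 6102 lower), and on the poly-A spike-ins 3 higher (all genes 860 and 9321). Leaving out 1 array gave 15 to 16 higher and 6 to 13 lower, the lowest without control replicate 1 (all genes 2355 to 2753 and 2186 to 2735). The mean of probe sets gave 15 higher and 11 lower (all genes 2618 and 2795). The replicate block gave 17 higher and 12 lower (all genes 2669 and 2605); only Cdc45 gained and only Orc6 lost a call.

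Under poly-A centring these genes turned negative: Mcm5 (−0.39), Mcm10 (−0.00080), Cdt1 (−0.023), Gmnn (−0.13), Cdc45 (−0.17), Gins1 (−0.30), Rfc4 (−0.090), Rfc5 (−0.15), Pola1 (−0.16), Pola2 (−0.39), Prim1 (−0.062), Prim2 (−0.12), Tyms (−0.16) and Chaf1b (−0.063). With hybridization centring Mcm5 (−0.16), Gins1 (−0.065) and Pola2 (−0.15) did so, with median centring Mcm5 (−0.018) and Pola2 (−0.013), and with a further quantile normalization Pola2 (−0.024). Leaving out 1 array moved Mcm5 between −0.011 (without control replicate 3) and 0.092, and Uhrf1 between −0.062 and 0.066 (without control replicate 1; 0.032 without starved replicate 1). Among probe sets that bind 1 transcript Mcm10 lay at −0.11, and Mcm7, Pole, Cdc6 and Fen1 had none left. A centring takes the same value off every gene of an array. Signals near the dim end, as for Tyms, limit what could be seen.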
